A study of Mus musculus with 24 samples.

Results

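The loss of CTCF in serum was followed by comparing mouse embryonic stem cells after 12 h of the auxin IAA with the same cells at 0 h. The 4 libraries, 2 at each time, belong to a series of 24 libraries of ATAC-seq, an assay in which a transposase cuts and tags open DNA. All 4 came from the E14 line with the genotype CTCF AID, in which CTCF carries an auxin-inducible degron that sends the protein to degradation when IAA is present. The control cells therefore carried the tagged protein too, and differed from the treated cells in IAA. The treatment labels and titles of these 4 libraries say serum, while the growth protocol attached to all 24 names a serum-free medium. Nothing in the labels says that the replicates came from separate cultures, so the spread between them may be technical. The lists do not show the level of CTCF protein.

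A locus was built from all peaks of the 4 lists that overlapped by at least 1 bp, which gave 112979 loci. A locus was called lost when both 0 h lists and neither 12 h list held a peak in it, and gained in the reverse case. Of the loci shared by both 0 h lists, 3487 of 45789 were lost, which is 7.62%. Of the loci shared by both 12 h lists, 7033 of 55436 were gained, which is 12.7%. A further 38837 loci were called in all 4 libraries and are named kept here. The remaining loci were called in only 1 library of at least 1 time and belong to none of these sets. They include 3465 called in both 0 h libraries and 1 at 12 h, and 9566 called in 1 at 0 h and both at 12 h. Set against all 112979 loci, lost ones made up 3.09% and gained ones 6.23%. An exact permutation test (two-sided) of 2 libraries against 2 cannot give a p under 0.333, so no such test can pass 0.05. A locus that is missing from a list lay below the calling limit of that list, which is not a measured absence of accessibility.

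CTCF is a zinc finger protein that binds a long, directional DNA sequence and, where it is bound, stops the cohesin ring as it extrudes chromatin loops. Its sites lie at the borders of topological domains, at insulators between enhancers and promoters, at imprinting control regions, and in embryonic stem cells also near many promoters. Bound CTCF keeps a short stretch of DNA free of nucleosomes with positioned nucleosomes on either side, and this open stretch is what ATAC-seq detects at its sites.

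Sequences of strong lost, kept and gained sites, chosen among loci that hold the CTCF consensus, are shown so that the binding sequence under the calls can be read directly. Capitals mark the match to the 14 bp CTCF core consensus, found on either strand with at most 1 mismatch, and 23 bp of flank on each side are in lower case. All are printed 5′ to 3′ on the strand of the match and were read from GRCm38. The lost sites lay near Ncoa7 (chr10:30811041-30811100, minus strand, 1 mismatch), in an intron of Ttc39a (chr4:109438075-109438134, plus strand, 1 mismatch), near Btbd10 (chr7:113378091-113378150, plus strand, no mismatch), near Ccdc80 (chr16:45090157-45090216, minus strand, 1 mismatch) and at the promoter of Dusp13 (chr14:21741986-21742045, minus strand, no mismatch). The kept sites lay at the promoter of Cggbp1 (chr16:64851898-64851957, minus strand, 1 mismatch), at the promoter of the noncoding gene 2610005L07Rik (chr8:20424845-20424904, minus strand, no mismatch) and between genes far from Gm17889 (chr5:18688664-18688723, minus strand, 1 mismatch). The gained site lay at the promoter of Isoc2b (chr7:4870215-4870274, minus strand, 1 mismatch).
Ncoa7, lost: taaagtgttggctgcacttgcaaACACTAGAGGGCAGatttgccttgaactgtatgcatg
Ttc39a, lost: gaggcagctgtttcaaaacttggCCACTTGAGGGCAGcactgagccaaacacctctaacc
Btbd10, lost: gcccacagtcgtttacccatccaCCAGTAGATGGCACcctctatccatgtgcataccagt
Ccdc80, lost: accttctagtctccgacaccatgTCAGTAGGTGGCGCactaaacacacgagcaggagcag
Dusp13, lost: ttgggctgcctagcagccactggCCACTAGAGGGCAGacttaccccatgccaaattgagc
Cggbp1, kept: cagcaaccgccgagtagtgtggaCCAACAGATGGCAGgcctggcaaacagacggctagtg
2610005L07Rik, kept: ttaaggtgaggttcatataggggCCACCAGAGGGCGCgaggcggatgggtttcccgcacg
Gm17889, kept: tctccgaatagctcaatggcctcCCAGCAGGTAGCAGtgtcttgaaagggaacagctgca
Isoc2b, gained: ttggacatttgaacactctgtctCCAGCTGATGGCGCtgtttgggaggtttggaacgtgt
All were chosen for holding the core, so its presence here says nothing on how often other loci hold it.

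The lists held 69153 and 59786 peaks at 0 h and 71773 and 82502 at 12 h. The depth of the libraries was not in the lists. The number of reads covering each summit (the pileup) was solved from the deposited fold and −log10 p under the convention of MACS2. For 100% of the peaks of all 4 lists a whole number gave back the deposited −log10 p, within a tolerance of 0.002 that was wider for the largest values. The sources used here do not say whether a unit of pileup is a read or a fragment, and it is called a read throughout. The lowest pileup in a list was 8, 8, 9 and 8 reads, and the median was 19, 18, 21 and 20. Within a time, 68.0% and 79.2% of the peaks of the 0 h lists and 79.0% and 69.2% of those of the 12 h lists were also in the other replicate, and at most 0.0627% of the intervals were identical. Of 10 markers of pluripotent cells, 7, 8, 8 and 8 had an open promoter, among them Nanog, Esrrb and Klf4 in all 4 libraries. Sox2 was open in 2, Pou5f1 in 1 and Tdgf1 in none. Markers of other lineages were open at similar shares, with 5, 5, 4 and 5 of 6 for endoderm, 6, 5, 5 and 5 of 6 for neural cells and 4, 2, 3 and 3 of 4 for mesoderm, so open promoters did not separate these cell types. Of 8 markers of fibroblasts, the usual feeder cells, 3, 3, 3 and 4 were open. Col1a2, Thy1 and Twist1 were open in all 4 libraries and Col3a1 in 1, while Col1a1, Postn, Dcn and Lum were open in none. An open promoter does not show expression.

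Peaks with the CTCF consensus were fewer after 12 h. Of all peaks, 9.93% and 9.95% had the consensus within 250 bp of the summit at 0 h, and 3.97% and 3.91% at 12 h. In numbers these were 6867 and 5948 peaks at 0 h and 2849 and 3227 at 12 h, so both 12 h lists held fewer consensus peaks although both were longer. The mean share was 9.94% ± 0.0134 (SD, n = 2) at 0 h and 3.94% ± 0.041 (SD, n = 2) at 12 h. The difference of −6.00 percentage points was larger than the spread between replicates. The exact permutation test (two-sided) gave its lowest reachable p, 0.333, which was also 0.333 after Benjamini-Hochberg adjustment over 4 measures of the lists.

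The consensus marked lost loci and was rare among gained ones. It was present in 1730 of the 3487 lost loci (49.6%, 95% Wilson interval 48.0 to 51.3), in 106 of the 7033 gained loci (1.51%, 1.25 to 1.82) and in 2224 of the kept loci (5.73%, 5.50 to 5.96), against 7.43% of all loci. These intervals, and those that follow, cover counting error over loci only. The share was graded by the number of libraries that called a locus. Of loci called in both 0 h libraries and 1 of the 12 h libraries, 668 of 3465 (19.3%) held it. Of loci called in 1 library at 0 h and none at 12 h, 18.2% held it, against 1.58% of those called in none at 0 h and 1 at 12 h.

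Read the other way, 1730 of the 4622 consensus loci shared at 0 h were lost (37.4%, Wilson interval 36.0 to 38.8). Among the 41167 shared loci without the consensus, 1757 were lost (4.27%, 4.08 to 4.47). Of the consensus loci, another 668 were called in only 1 of the 12 h libraries and 2224 remained in both. The better the match, the more often the locus was lost. The share lost was 45.4% (578 of 1273) without mismatch, 34.4% (1152 of 3349) with 1 mismatch, 9.24% (856 of 9260) with 2 and 2.82% (901 of 31907) with none within 2 mismatches.

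The counts of calls depend on how many libraries must agree. Leaving out 0 h replicate 1 gave 9206 lost and 13620 gained loci, leaving out 0 h replicate 2 gave 12508 and 10089, leaving out 12 h replicate 1 gave 4909 and 25348, and leaving out 12 h replicate 2 gave 5677 and 17925. Each of these rules asks for 1 library fewer. The share lost then was 42.9% to 51.1% with the consensus and 7.06% to 15.2% without it. The balance of losses and gains depended on list length, since lost loci made up 33.1% of all changed loci in the lists as deposited and 52.8% in lists of equal length, with 4283 lost and 3825 gained.

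The position of the consensus within the open site was measured from its centre to the summit, the point of highest coverage. In lost loci it lay within 50 bp of the summit in 69.7%, at a median of 37.5 bp, and in kept loci with the consensus in 42.4%, at a median of 66.5 bp. It was rarely under the summit itself. The 20 bp bins at 30 to 50 bp on either side held 21.7% and 21.4% of the lost loci, and the bin from −10 to 10 bp held 3.12%. In kept loci the same bin at 30 to 50 bp held 12.3%, and the central bin 3.6%. The matches lay on the plus strand of the genome in 49.0% of lost loci. Where the consensus was within 50 bp of the summit, 47.2% of shared loci were lost (1116 of 2364), against 27.2% (614 of 2258) where it was farther away.

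**Figure D1:**
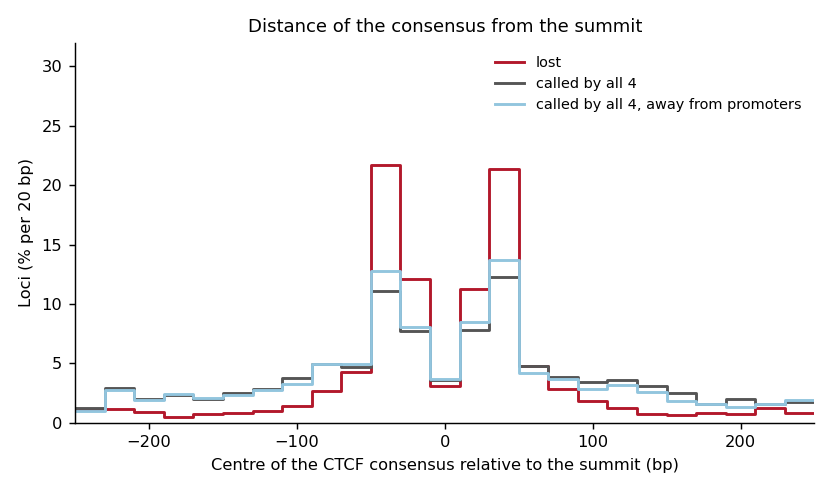
Distance in bp from the summit to the centre of the CTCF consensus (x axis, plus strand of the genome) against the percentage of loci per 20 bp (y axis), for lost loci, kept loci and kept loci away from promoters. The lost loci peak at 30 to 50 bp on both sides (21.7% and 21.4%) and dip to 3.12% at the summit.

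By annotation most lost loci lay in introns and between genes, as did most loci of any kind. Introns held 1658 of them (47.5%, against 42.3% of all loci) and intergenic DNA within 100 kb of a start 1366 (39.2%, against 32.6%). Coding exons held 116 (3.33%, against 4.0% of all loci) and untranslated regions 94 (2.70%, against 2.2%). Another 47 (1.35%, against 2.34%) lay farther than 100 kb from any start. Promoters, taken as summits within 500 bp of an annotated start, held 99 lost loci of protein-coding genes (2.84%) and 71 of other genes (2.04%). Among kept loci, promoters of protein-coding genes alone made up 30.7% (11906), and among all loci 12.8%. Promoters of any gene made up 4.88% of lost loci here, 12.8% when peaks with a −log10 q under 10 were left out and 9.30% when a call needed a summit in the window. The median distance to the nearest start was 12225 bp for lost and 4467 bp for kept loci.

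Promoters of protein-coding genes mostly kept their peaks, also where they held the consensus. Of shared 0 h loci with the consensus, 22 of 628 at promoters of protein-coding genes were lost (3.50%, Wilson interval 2.32 to 5.25). The share was 27.7% (39 of 141) at promoters of other genes, 47.1% (830 of 1763) in introns, 41.7% (718 of 1722) in intergenic DNA within 100 kb and 26.1% (42 of 161) in coding exons. Without the consensus it was 0.665% (77 of 11584) at promoters of protein-coding genes and 6.22% (828 of 13302) in introns. The consensus loci of every autosome lost between 27.7% (chromosome 17) and 45.5% (chromosome 14). Chromosome X lost 24.1% (19 of 79), and neither of the 2 loci on Y was lost.

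**Figure D2:**
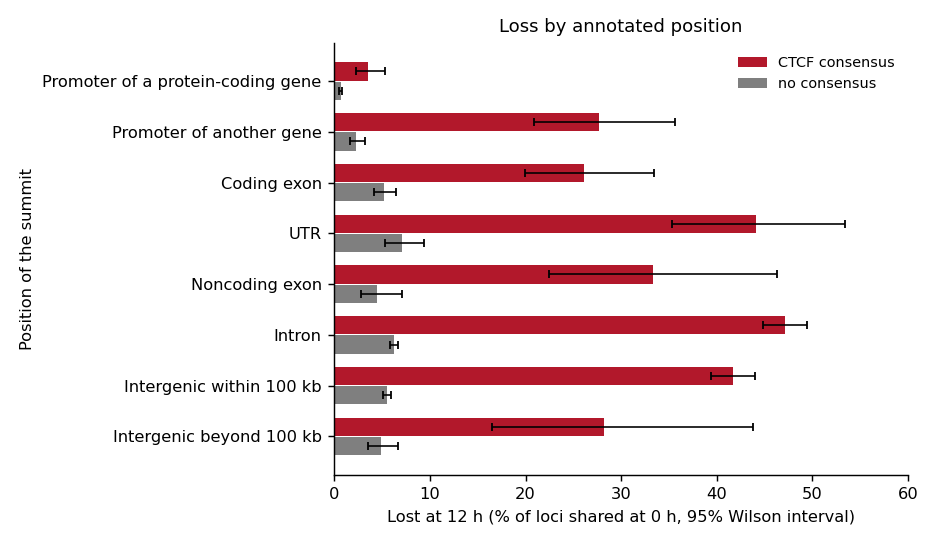
Percentage of loci shared at 0 h that were lost at 12 h (x axis) by annotated position of the summit (y axis), with and without the CTCF consensus; error bars are 95% Wilson intervals over loci. Consensus loci in introns lost 47.1% and those at promoters of protein-coding genes 3.50%.

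Loss followed the rank of a locus in the 0 h lists. The rank is the percentile of the authors' −log10 p within a list, averaged over both 0 h lists, and describes strength within those lists. Calls rest on the same deposited significance, so loci of low rank leave a list more easily, with or without the consensus. The decline with rank is therefore no measure of resistance to the loss of CTCF. Lost loci had a median percentile of 44.9 with the consensus and 32.9 without it. At percentiles 0 to 10, 71.4% of the consensus loci were lost (35 of 49) and 22.3% of the others. The share was lower at higher ranks, at 41.1% and 4.19% at percentiles 50 to 60, and 2.10% (7 of 334) and 0.0181% (1 of 5529) at 90 to 100. Promoters made up 52.7% of the consensus loci in that highest bin. Away from promoters the share of consensus loci lost was 74.5% in the lowest and 3.16% (5 of 158) in the highest bin of 10 percentiles. At promoters of all genes it was lower than away from them in each bin that held at least 20 promoter loci, for example 13% (9 of 69) against 44.2% (279 of 631) at percentiles 50 to 60.

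**Figure D3:**
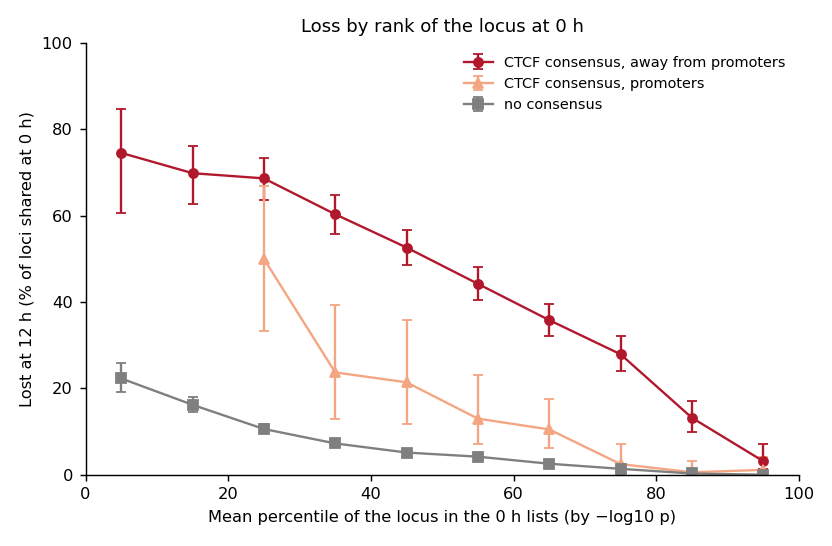
Percentage of loci shared at 0 h that were lost at 12 h (y axis) by mean percentile of the locus in the 0 h lists (x axis, bins of 10 percentiles), for consensus loci away from promoters, consensus loci at promoters and loci without the consensus; bars are 95% Wilson intervals and bins with fewer than 20 loci are not drawn. The consensus loci away from promoters run from 74.5% to 3.16%, above the loci without the consensus in each bin. The sets are unlike, since the loci without the consensus include promoters, at 6.38% of them in the lowest and 63.7% in the highest bin.

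The ranks of kept loci are given as a description, since a percentile depends on the length of its list and the 12 h lists were longer. Among the 1560 kept consensus loci away from promoters, the median percentile was 69.0 and 66.0 at 0 h and 54.4 and 60.9 at 12 h. In 614 of them (39.4%) both 12 h percentiles were below both 0 h percentiles, and in 235 (15.1%) both were above. The 24033 kept loci without the consensus away from promoters had medians of 62.0 and 57.5 at 0 h and 66.4 and 71.0 at 12 h. Of these, 8.06% were lower and 35.5% higher in both 12 h libraries. The 664 kept consensus loci at promoters lay at 83.5 and 78.4, then 79.1 and 79.7, so the values of the times overlapped, with 24.5% lower and 19.9% higher in both 12 h libraries.

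The strongest lost loci with the consensus covered 28 to 41 reads at their summits at 0 h and were in neither 12 h list. The first lay between genes at chr10:30810279-30811179, 7701 bp from the start of Ncoa7, a coactivator of nuclear receptors, with 36 and 41 reads and percentiles of 92.2 and 97.1. The next lay in an intron of the noncoding gene Gm14066 (chr2:139381794-139382201) with 34 and 35 reads. One at chr1:85323237-85323598 in an intron of Gm2619 had 30 and 37 reads, and 95.2% of its window was masked as repeat. All 10 were above the lowest pileup of a list by a factor of more than 3 in both 0 h libraries. They have no pileup value at 12 h, and the pileup a call needs differs between loci.

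Other loci of this group lay at the promoter of the noncoding gene 4930524O08Rik (chr9:89826842-89827586, 37 and 36 reads) and in an intron of Ttc39a (chr4:109437851-109438368, 39 and 35 reads). One was at chr17:48416626-48417288, at the promoter of AC166164.1 within Oard1, which removes ADP-ribose from proteins, with 39 and 33 reads. Between genes, loci lay 8636 bp from Btbd10 (chr7:113377770-113378198, 36 and 29 reads) and 3461 bp from Ccdc80, a secreted matrix protein (chr16:45089867-45090221, 28 and 31 reads). The locus 39955 bp from Nfkb1, which encodes a subunit of NF-kappa-B, had 33 and 35 reads (chr3:135731384-135731582), and one 1130 bp from Gm40117 had 39 and 28 (chr3:104992589-104993259). Each of the 10 was called in both serum-free control libraries without IAA. With IAA, 4 of them were called in neither library, 3 in 1 and 3 in both.

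**Figure D4:**
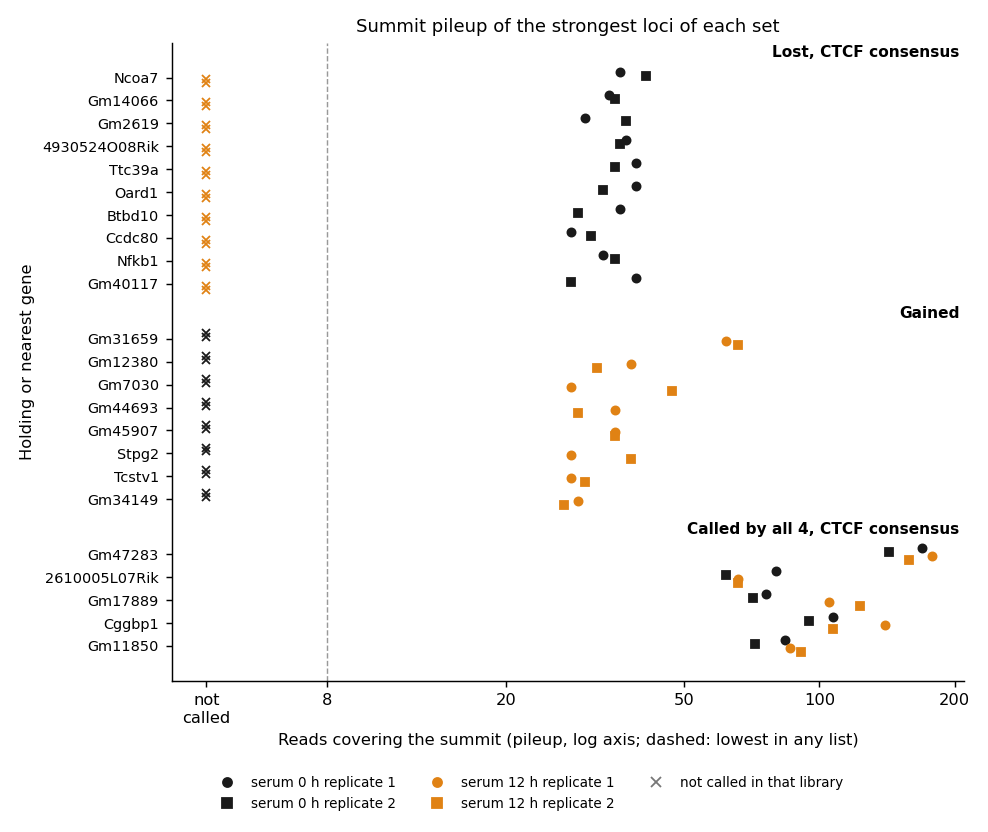
Reads covering the summit (x axis, log scale) in each of the 4 serum libraries for the 10 strongest lost loci with the CTCF consensus, the 8 strongest gained loci and the 5 strongest kept loci with the consensus (y axis, by holding or nearest gene); crosses mark libraries without a peak, which have no pileup value. Lost loci show 28 to 41 reads at 0 h and crosses at 12 h, and kept loci 62 to 178 reads in all 4 libraries.

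Of the 99 lost promoters of protein-coding genes 22 held the consensus, against 584 of the 11906 kept ones. The highest in rank was that of 9230104L09Rik (chr2:148851016-148851728), without consensus, at 27 and 24 reads. It was followed by Rgs20, a regulator of G protein signalling (chr1:5070086-5070735, 23 and 19 reads), Dcaf15, a substrate receptor of a ubiquitin ligase (chr8:84104296-84104481, 45 and 27 reads) and B230217C12Rik (chr11:97841004-97841411, 29 and 26 reads), all without it. With the consensus were 1700013F07Rik (chr3:108537384-108537707, 23 and 26 reads), Hsd3b7, an enzyme of bile acid synthesis (chr7:127800238-127800743, 28 and 31 reads), and Dusp13, a dual-specificity phosphatase (chr14:21741795-21742165, 30 and 17 reads). The promoter of Erap1, an aminopeptidase that trims peptides for antigen presentation, had 37 and 24 reads without it (chr13:74639063-74639306). These promoters ranked between percentiles 69.2 and 79.9, below the median of 80.0 of promoters called in all 4 libraries at 0 h.

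Of the strongest lost loci in gene bodies, the first lay in a noncoding exon of Kpna1, an importin of the nuclear pore pathway (chr16:35981614-35981809). It was 196 bp long, held no consensus and covered 145 and 131 reads at 0 h. Its peak was in neither 12 h list, in 1 of 2 libraries of each of the 4 serum-free groups, with and without IAA, and in none of the 12 Chd4 and Chd8 libraries. Another lay in an intron of Arl13b, a ciliary GTPase (chr16:62832416-62832880, 33 and 26 reads), with the consensus, and was called in both serum-free libraries without IAA and neither with it.

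The 1757 lost loci without the consensus covered fewer reads than those with it. Their median summit pileup was 15 and 14 reads at 0 h, against 17 and 16 for lost loci with the consensus and 26 and 23 for all kept loci. After Kpna1, the highest in rank lay 6386 bp from Grk5, a kinase of G protein-coupled receptors (chr19:60883017-60883488, 28 and 29 reads), on chr13:3037128-3037300 near Gm8598 (27 and 29 reads), on chromosome 18 near Gm25396 (25 and 27 reads) and in an intron of Gria4, a glutamate receptor subunit (chr9:4443005-4443379, 23 and 30 reads). Of these 4, the locus in Gria4 was called in both serum-free libraries without IAA and neither with it. The loci near Grk5, on chromosome 13 and on chromosome 18 were called in 1 and 0, 0 and 1, and 2 and 2 of them.

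Other binding sequences were searched within 250 bp of the summits, on both strands and with overlaps between motifs allowed. The KLF motif GGGNGTGG was in 13.1% of lost loci with the CTCF consensus, 17.6% of lost loci without it, 23.8% of gained loci and 26.7% of kept loci away from promoters, against 23.9% of all loci. The octamer ATGCAAAT was in 2.49%, 3.13%, 4.14% and 5.19%, against 3.77% of all loci. The AP-1 motif TGANTCA was in 14.5%, 14.6%, 17.1% and 16.0%, against 15.1%. The lost loci were also poorer in GC than kept loci, at a median of 48.7% against 54.1%, with 7 against 13 CpGs in a window. Kept loci away from promoters, at 50.9% and 8 CpGs, were nearer to them.

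Gained loci had low ranks, and 63.0% to 64.6% of them were called in the serum-free control libraries, against 93.6% to 94.9% of kept loci. Introns held 3281 of the 7033 (46.7%), intergenic DNA within 100 kb 2527 (35.9%) and promoters of protein-coding genes 245 (3.48%). Coding exons held 4.66% and DNA farther than 100 kb from any start 3.34%, against 3.33% and 1.35% of lost loci and 4.0% and 2.34% of all loci. Their median pileup was 15 reads in both 12 h libraries, and their median percentile 29.2. Of the loci shared at 12 h, 61.2% were gained at percentiles 0 to 10 of the 12 h lists and 0.0140% (1 of 7137) at 90 to 100. In 14.3% of them most of the window was masked as repeat, against 5.88% of lost loci, 12.3% of kept loci away from promoters and 10.5% of all loci. A gained summit lay within 1000 bp of a lost locus in 42 of 3487 cases (1.2%).

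The strongest gained locus lay in an intron of Gm31659 (chr8:95816150-95816589), with 62 and 66 reads at 12 h and no peak at 0 h. The next lay far from genes at chr4:38435128-38436041 (38 and 32 reads, 87.0% masked), 171560 bp from Gm12380. Others lay in a noncoding exon of Gm7030 in the major histocompatibility complex (chr17:36116493-36116834, 28 and 47 reads) and in an intron of Stpg2 (chr3:139614534-139615385, 28 and 38 reads). Another lay 7646 bp from Tcstv1, a gene of the early embryo (chr13:119886319-119887262, 28 and 30 reads). None of the 8 strongest held the CTCF consensus, and 6 of them were called in all 4 serum-free control libraries, with and without IAA.

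The gained promoters of highest rank were those of Cfap97d2 (chr8:13705744-13705977, 28 and 20 reads), Nlgn1, a synaptic adhesion protein (chr3:26152598-26153323, 24 and 23 reads) and Lpar4, a receptor for lysophosphatidic acid (chrX:106920343-106920793, 24 and 28 reads). Those of Slc5a11, a sodium-coupled inositol transporter, and Nyap2 had 22 and 24, and 27 and 18 reads. The promoter of Gcm1, a transcription factor of the placenta, had 29 and 34 reads (chr9:78051611-78051984) and was called in 1 of the 8 serum-free libraries. Isoc2b was the only one of the 8 with the CTCF consensus (37 and 35 reads). The kept consensus loci of highest rank covered far more reads, for example 107 and 95 at 0 h and 140 and 107 at 12 h at the promoter of Cggbp1, a protein that binds CGG repeats.

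Gene lists chosen for embryonic stem cells and for CTCF biology were read as all loci in a gene or within 20 kb of it, beside the background of 7.62% lost and 12.7% gained. For their consensus loci the background is the 37.4% lost among all consensus loci. Up to 4 changed loci of each list, chosen by percentile, are named, in an order that groups lost and gained ones. Genes of naive pluripotency had 12 of 98 shared 0 h loci lost (12.2%), including 4 of 6 with the consensus, and 9 of 104 shared 12 h loci gained (8.65%). The highest in rank was a lost locus 9904 bp from the start of Dppa5a, an RNA-binding protein of pluripotent cells (chr9:78358112-78358517, consensus, 39 and 24 reads). The next was in a coding exon of Kndc1, 12835 bp from Utf1, a chromatin protein of pluripotent cells (chr7:139930494-139931112, consensus, 17 and 20 reads). Another was in an intron of Esrrb, an orphan nuclear receptor (chr12:86508002-86508807, no consensus, 34 and 31 reads). These 3 were called in both serum-free control libraries without IAA and neither with it. The next, in an intron of Sox2ot near Sox2, a core pluripotency factor, was called in all 4 of those libraries (chr3:34653773-34654153, no consensus, 30 and 29 reads). The other lost consensus loci, named after their values were seen, lay 7797 bp from Fgf3 in the range of Fgf4 (14 and 13 reads) and 3439 bp from Gm8087 in the range of Dppa5a (18 and 13 reads). The promoters of Nanog, Esrrb, Dppa5a and Utf1 were open in all 4 serum libraries, that of Sox2 in 0 h replicate 2 and 12 h replicate 1, and that of Pou5f1 in 12 h replicate 2.

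Regulators of lineages had 7 of 91 lost (7.69%) and 12 of 100 gained (12.0%), close to the background. A consensus locus in an intron of Elf5, a transcription factor of the trophoblast, was lost (chr2:103424546-103425079, 17 and 15 reads), as was one 15188 bp from Lefty1, an antagonist of Nodal (chr1:180919251-180919953, no consensus, 18 and 28 reads). Both were called in the serum-free control line in both libraries without IAA and neither with it. Of 12 consensus loci 3 were lost, the others, named after their values were seen, being a second one in Elf5 (12 and 11 reads) and one near Urad in the range of Cdx2 (10 and 12 reads). A gained locus in an intron of Bcan, in the range of Nes, the neural filament nestin (chr3:87997301-87997697, 34 and 27 reads), was called in all 4 libraries of that line. Imprinted genes had 5 of 99 lost (5.05%), 3 of them among 12 consensus loci, and 15 of 129 gained (11.6%). The highest in rank were a gained locus in an intron of Snrpn, a splicing protein of the Prader-Willi region (chr7:60006259-60006525, 26 and 40 reads), and a lost one near Phlda2, a growth regulator of the placenta (chr7:143506340-143506871, 31 and 22 reads). Neither held the consensus, and both were called in all 4 serum-free control libraries. A gained locus in an intron of Usp29 covered 16 and 10 reads, and one within Rian, at the promoter of the noncoding gene Gm24899, 12 and 13. The lost consensus loci, named after their values were seen, lay in introns of Commd1 (16 and 11 reads) and Usp29 (10 and 14 reads) and at the promoter of Trpm5 in the range of Kcnq1 (14 and 9 reads), and the remaining lost locus lay near Dlk1 (17 and 14 reads).

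Genes of CTCF and cohesin, the ring that CTCF halts, had 1 of 61 loci lost (1.64%) and 12 of 82 gained (14.6%). The lost one, named after its values were seen, lay near A930038B10Rik in the range of Wapl (10 and 12 reads). None of their 9 consensus loci was lost. The highest in rank were gained loci in introns of Stag1 (16 and 17 reads) and Stag2 (13 and 17 reads), which encode alternative subunits of cohesin, and 2 in introns of the cohesin regulator Pds5a (19 and 12, and 21 and 17 reads), all without the consensus. The Hox clusters had 1 of 59 lost, in a coding exon of Hoxb8 (24 and 17 reads), and 8 of 75 gained, near Hoxc11 (22 and 31 reads), near Hoxb1 (15 and 19 reads) and in an intron of Hoxc9 (18 and 27 reads) among others. The clustered protocadherins, neuronal adhesion genes with alternative promoters, had 6 of 56 lost (10.7%) and 10 of 56 gained (17.9%). The strongest lost locus lay in an intron of the neighbouring Diaph1 with the consensus (32 and 25 reads), and was called in both serum-free control libraries without IAA and neither with it. The promoter of Pcdhga12 was lost (23 and 28 reads), and loci in coding exons of Pcdhgc5 (40 and 44 reads) and Pcdhga9 (19 and 37 reads) were gained, all 3 without the consensus.

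Genes of the response to serum and BMP had 5 of 87 lost (5.75%) and 8 of 100 gained (8.00%). Lost loci lay near Id4, an inhibitor of helix-loop-helix factors (17 and 13 reads), 9567 bp from Egr1, a zinc finger gene of the immediate early response (consensus, 22 and 15 reads), and in an intron of Egr2 (32 and 21 reads). A gained one lay in an intron of Gm26904 near Srf, the serum response factor (24 and 28 reads). Of these 4, only the locus near Egr1 was called in both serum-free control libraries without IAA and in neither with it. The remaining lost loci, named after their values were seen, held the consensus and lay in a coding exon of Acta2 (12 and 11 reads) and near E2f2 in the range of Id3 (16 and 13 reads). Targets of the aryl hydrocarbon receptor had 1 of 22 lost, a consensus locus 16362 bp from Nqo1, a quinone reductase (17 and 25 reads), and 2 of 23 gained, in an intron of Nob1 near Nqo1 (23 and 24 reads) and near Ctss in the range of Arnt (15 and 9 reads). Targets of p53 had 3 of 57 lost and 3 of 61 gained, all without the consensus. By rank these were a lost locus near Zmat3 (23 and 16 reads), gained ones near Mdm2 (15 and 19 reads) and in the range of Aen (14 and 12 reads), and a lost one in an intron of Trp53cor1 near Cdkn1a (17 and 16 reads). The others, named after their values were seen, were a lost locus in Ccng1 (17 and 13 reads) and a gained one near Zmat3 (15 and 14 reads). The Myc family had 1 of 25 lost, in an intron of Pvt1 (16 and 16 reads), and 6 of 36 gained, the highest 16909 bp from Myc (20 and 18 reads). In lists of this size, a few loci more or fewer than the background are not a result about the genes.

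The libraries of the other media and knockdowns were not used for the calls and show where the serum loci were open elsewhere. In serum-free medium, the control line, CTCF AID cells with a control for overexpression, had libraries with no IAA and with 12 h of IAA. It called 79.4% and 79.5% of the serum lost loci without IAA and 31.2% and 30.5% with it. For lost loci with the consensus the values were 83.9% and 82.9%, then 23.4% and 22.7%, and for those without it 75.0% and 76.3%, then 38.9% and 38.2%. Kept loci with the consensus were called at 98.0% and 98.0%, then 92.4% and 91.8%. Lost loci were thus called less often with IAA in the second medium as well, by more points for those with the consensus, and the difference between the kinds of locus was not tested.

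Against all 14 libraries without IAA outside serum, which include 12 with hairpins (shluci, or against the chromatin remodellers Chd4 or Chd8), the 2 IAA libraries of the control line called fewer lost consensus loci. The mean was 23% ± 0.445 (SD, n = 2) against 59.0% ± 17.6 (SD, n = 14). The exact permutation test (two-sided) gave p = 0.0167, the lowest that 2 against 14 can reach (0.05 adjusted over 6 tests of this kind). Both IAA libraries lay below all 14. The 14 come from several sets with different hairpins, so IAA and set cannot be told apart in this test. Kept loci also differed, at a mean of 93.7% in the 2 IAA libraries and 78.6% in the 14. For all lost loci the means were 30.9% ± 0.467 (SD, n = 2) and 54.3% ± 16.4 (SD, n = 14), with an exact permutation p of 0.1 (adjusted 0.15), and 2 Chd4 libraries lay below both IAA libraries, at 28.5% and 30.5%. For lost loci without the consensus the means were 38.6% and 49.6%, with an exact permutation p of 0.4 (adjusted 0.4). Within the serum-free control line alone all lost loci differed by −48.6 points, with an exact permutation p for 2 against 2 libraries of 0.333. This comparison was chosen after seeing the data. The Chd4 libraries called 57% to 80.3% of the kept serum loci and the Chd8 libraries 80.2% to 87.6%, so the sets overlapped.

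**Figure D5:**
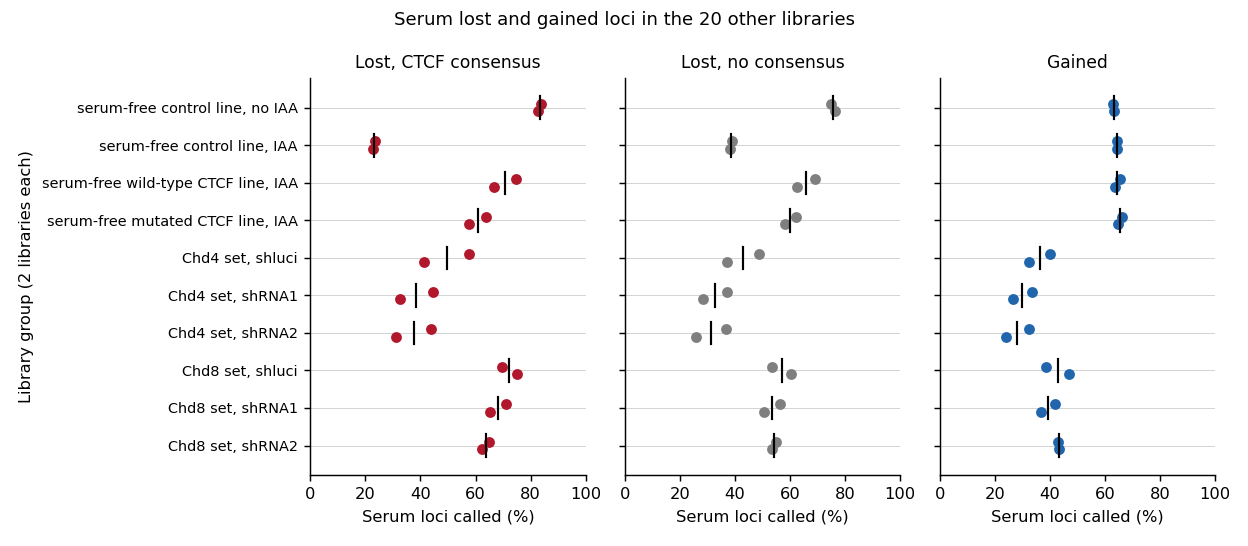
Percentage of serum loci called (x axis) in each of the 20 libraries that were not used for the calls (points, 2 per group on the y axis; bars are means), for lost loci with the CTCF consensus, lost loci without it and gained loci. Lost consensus loci stand at 83.9% and 82.9% without IAA and at 23.4% and 22.7% with IAA in the serum-free control line, and gained loci at 63.0% to 64.6% in all 4.

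Of the 1730 lost consensus loci, 830 (48.0%) were called in both serum-free control libraries without IAA and neither with it, and 258 (14.9%) in all 4. Of the 1757 lost loci without the consensus these were 504 (28.7%) and 529 (30.1%). Kept consensus loci showed the first pattern in 80 of 2224 cases (3.6%). When loci of the serum-free control line were built in the same way, 9533 of 108247 were lost (8.81%) and 3984 of 99132 gained (4.02%), with 38.2% (2824 of 7392) of the consensus loci lost and 6.65% of the others. Of the serum lost loci, 1285 (36.9%) overlapped one of these losses, and 13.5% of the serum-free losses overlapped a serum loss. For consensus loci the overlap was 791, which is 45.7% of the serum and 28.0% of the serum-free losses.

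Lines that overexpressed CTCF under IAA in serum-free medium called more of the serum lost consensus loci than the control line under IAA. The line with wild type CTCF called 74.9% and 66.9%, and the line with mutated CTCF 64.0% and 57.6%, so the values of the lines did not overlap each other. The labels do not say what the mutation changes. Of the 830 loci lost in both media, 506 (61.0%) were called in both libraries of the wild type line, 396 (47.7%) in both of the mutated line and 323 (38.9%) in all 4. No more than a description can be drawn from these values, as the 830 were chosen by their absence from the shared control libraries.

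Gained loci were called in serum-free medium with and without IAA. The control line called 63.0% and 63.4% of them without IAA and 64.4% and 64.6% with it, while kept loci were called at 94.8% and 94.9%, then 93.6% and 93.8%. Against the 14 libraries without IAA the exact permutation p was 0.0167 (adjusted 0.05 over 6 tests), at 64.5% ± 0.127 (SD, n = 2) and 40.5% ± 11.6 (SD, n = 14), but within the serum-free control line the means differed by 1.3 points only, with both IAA libraries above both others (exact permutation p = 0.333). All 4 serum-free control libraries called 3439 of the gained loci (48.9%), while 166 (2.36%) were called in both with IAA and neither without it, and 119 (1.69%) the reverse. For kept loci these shares were 90.4%, 0.281% and 0.842%. Of the serum gained loci 2.08% overlapped a serum-free gain, and of the serum-free gains 3.66% overlapped a serum one. The 12 h lists were longer than the 0 h lists in serum and shorter with IAA in serum-free medium, and the part of list length in the gains beyond the values above was not tested.

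The share of peaks at promoters was 23% and 25.3% at 0 h and 22.2% and 19.7% at 12 h. The means were 24.15% ± 1.64 (SD, n = 2) and 20.98% ± 1.77 (SD, n = 2). The difference of −3.17 points had p = 0.333 by exact permutation, and in lists of equal length it was −0.415 points, less than the spread. Over loci, 13078 promoter loci of protein-coding genes were shared at 0 h or at 12 h, and 11906 of them (91.0%) were called in all 4 libraries.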

How the data were processed

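The authors deposited 1 peak list per library in the narrowPeak layout, and the submitters' processing notes name Trim Galore, Bowtie2, MACS2, deepTools and the build mm10, with options not given in the sources used here. Columns 1 to 3 and 10 gave positions. The deposited fold is a ratio of summit signal to local background, and the deposited −log10 p and −log10 q rank peaks within their own list only, with a lowest −log10 q of 1.30 to 1.31.

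Positions were annotated with GENCODE vM21 (77161 starts) on GRCm38, which is mm10. The consensus was searched in the genome with at most 1 mismatch. Loci of the strongest ranks, of each kind, were named by a fixed rule, as were up to 4 loci per gene list. A few loci that this rule names are not reported here. The members and lists were chosen with earlier results of these data known. Shares of libraries were compared by exact permutation in Python 3.11.15 with numpy 2.4.6 and pandas 2.3.3, and intervals are 95% Wilson intervals. The code for the calling was run on simulated lists without missed or spurious peaks, which say nothing on error rates in these data. Of 24 genes on the serum and BMP list 22 were found by name. Alternatives were list length, thresholds, overlap rule, motif match, promoter distance and leaving out libraries. Labels number the 12 h libraries 1 and 2, while peak names in their files carry 2 and 4, so the numbers were not taken to pair libraries.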

Additional observations from a re-analysis of the deposited data

Results flagged for a closer look

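Several measures of the lists moved in opposite directions with IAA in the 2 media, without overlap between the libraries of each medium, and these differences were not tested. The promoter share fell by 3.174 percentage points in serum and was 0.8367 points higher with IAA in the serum-free control line. In serum lists of equal length the difference was −0.415 points, less than the spread between replicates. The share of intergenic peaks was 0.98 points higher in serum and fell by 0.1721 points in serum-free medium. The number of peaks per list was 12670 higher at 12 h in serum and fell by 11600 with IAA in serum-free medium. The share of peaks with the CTCF consensus moved in the same direction in both, at −5.999 and −3.255 points.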

How the results depend on the processing

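Lost loci were fewer than gained ones as deposited (3487 against 7033), but more numerous in lists of equal length (4283 against 3825) and without 0 h replicate 2 (12508 against 10089). The promoter share was lower in lost than in gained loci (4.88% against 6.03%), but higher by summit windows (9.30% against 8.72%) and without 12 h replicate 1 (7.11% against 4.84%) or 12 h replicate 2 (6.13% against 5.83%). The share lost was higher with the consensus than without it under every alternative run. Values that moved are given by setting, in the order share lost with the consensus, share lost without it, consensus share of gained loci, promoter share of lost and of gained loci, as far as each moved. The cause of these shifts was not tested. In lists of equal length the shares were 44.0%, 5.89%, 1.83% and 5.86% (lost), with 3825 gained loci. With a −log10 q of at least 5 they were 39.8%, 3.36%, 5.83% (lost) and 9.44% (gained) with 2211 lost loci. At 10 they were 31.5%, 2.41%, 2.59%, 12.8% and 18.1%, with 773 lost and 3238 gained loci. Windows of fixed length on summits gave a promoter share of gained loci of 6.63% by overlap, and 42.8%, 6.69%, 9.30% (lost) and 8.72% (gained) by summit. A consensus without mismatch gave 45.4%, 6.53% and 0.171%, up to 2 mismatches gave 18.6%, 2.82% and 15.3%, and within 50 bp of the summit it gave 47.2%, 5.46% and 0.370%. A promoter distance of 1000 bp gave 7.86% (lost) and 9.5% (gained).

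Leaving out 1 library gave 4909 to 12508 lost and 10089 to 25348 gained loci, since fewer lists must then agree. The shares were 42.9% to 51.1%, 7.06% to 15.2%, 1.49% to 2.08%, 4.67% to 7.11% and 4.84% to 7.94%. The consensus share per list differed by −6.03 to −5.97 points and the promoter share by −4.42 to −1.92. The replicate block, which pairs libraries by number, left 3487 lost and 7033 gained loci and gave an exact permutation p of 0.5 for both differences between lists (−6.00 and −3.17 points). The labels give no ground for this pairing.

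Outside serum, lost loci differed between IAA and no IAA by −22.2 points in lists of equal length and by −36.0 with the consensus only, each with an exact permutation p of 0.0167. The difference was −32.5 points (exact permutation p 0.0714) against the 6 libraries without IAA and without a Chd hairpin. In these tests IAA and set cannot be told apart. For gained loci the difference was 17.1 points (p 0.0714) against those 6 libraries, 21.5 (p 0.1) with the consensus only, and 1.3 (p 0.333) against the serum-free control line only, by exact permutation, a comparison chosen after seeing the data. No overlap rule other than the first bears on the shares per list, which do not use loci. Called summits held at least 8 or 9 reads, and a locus that was not called has no pileup value.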

Other observations

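Lost loci were spread over many genes. Away from promoters, 1705 genes held at least 1 lost locus, 164 held 2 or more and 23 held 3 or more, and with the consensus 879 genes held at least 1 and 49 held 2 or more. Neighbouring lost consensus loci were a median of 692384 bp apart, and 27 of 1710 neighbour distances were within 10000 bp. Genes chosen after their values were seen, for holding 3 lost consensus loci, were Arhgef10l, Car10, Cdh13, Negr1 and Pde10a. Cdh13 is a cadherin without a transmembrane part, Negr1 a neuronal adhesion protein and Pde10a a phosphodiesterase of cyclic nucleotides. In Arhgef10l, Car10, Cdh13 and Pde10a all 3 of the shared consensus loci were lost, and in Negr1 3 of 4. These genes are between 152 and 1040 kb long. The annotated gene Gm20388, which spans 4430 kb, held 9 lost of 17 shared consensus loci.

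A gained locus with the CTCF consensus in the Myc family lay 1912 bp from Myc at the start of Gm37947 (chr15:61983211-61983535). It covered 33 and 44 reads at 12 h in serum and was in neither 0 h list. Its fold over background was only 2.04 and 2.85, at percentiles of 6.4 and 50.8 of the 12 h lists, so it ranked low in replicate 1. In the serum-free control line it was called in both libraries without IAA and neither with it, the opposite direction.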
